A study of Homo sapiens with 12 samples.

Results

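The data described here are the transcript levels of 9 liver-made genes of blood clotting and clot removal in human hepatoma cells after ARD1 was lowered. They comprise plasminogen (PLG), the clotting factors prothrombin (F2), factor V (F5), factor VII (F7) and factor X (F10), kininogen (KNG1), protein C (PROC), and the serpins antithrombin (SERPINC1) and heparin cofactor II (SERPIND1). The genes were chosen by name, with earlier results of these data known. All 9 were present in both deposited count tables, which list 28704 genes in all. Total RNA was depleted of rRNA and sequenced from 12 libraries, 3 in each of 4 groups. Huh-7 cells and cells labelled Hep-3B, both established human hepatoma lines, received either a negative-control siRNA or siARD1, which targets ARD1. The gene is now named NAA10 and encodes the active subunit of an enzyme that acetylates the N termini of proteins. The groups differ in no other agent or allele named in the labels, and no time after transfection is given there. The labels do not say whether libraries of a group came from separate cultures, so p-values measure only the spread between these libraries, which may be technical.

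Hepatocytes make and secrete most of the proteins that clot blood and most of those that restrain clotting. Factor VII, with tissue factor, starts the cascade and activates factor X, which with factor V as its cofactor cuts prothrombin to thrombin, and thrombin turns fibrinogen into fibrin. Antithrombin and heparin cofactor II block thrombin, activated protein C cuts factor V, and plasmin, made from plasminogen, dissolves fibrin. Kininogen carries the peptide bradykinin and serves as the cofactor of the contact system. Prothrombin, factor VII, factor X and protein C need a vitamin K-dependent carboxylation to work. The transcription of these genes in hepatocytes is known to depend on factors such as HNF4, FOXA and C/EBP.

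Sequences upstream of the transcription start are shown because the genes differed in their response, and because PLG and F2 share an element there. RefSeq promoter windows (GRCh38.p14) were matched for 8 of the 9 genes, in 10 windows, and SERPINC1 was not matched. The first is PLG, which fell most of the 9, on chromosome 6 (chr6:160701994-160702237, plus strand), with capitals marking the element GTTAAT on the opposite strand. The second and the third are the neighbours F7 (chr13:113105541-113105787, plus strand, capitals marking an HNF4-type element on the opposite strand) and F10 (chr13:113122549-113122798, plus strand, with no element found).
PLG upstream: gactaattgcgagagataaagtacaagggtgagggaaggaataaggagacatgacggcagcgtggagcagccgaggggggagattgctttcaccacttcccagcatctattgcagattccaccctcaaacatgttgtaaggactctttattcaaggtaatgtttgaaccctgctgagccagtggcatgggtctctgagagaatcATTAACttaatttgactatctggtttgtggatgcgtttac
F7 upstream: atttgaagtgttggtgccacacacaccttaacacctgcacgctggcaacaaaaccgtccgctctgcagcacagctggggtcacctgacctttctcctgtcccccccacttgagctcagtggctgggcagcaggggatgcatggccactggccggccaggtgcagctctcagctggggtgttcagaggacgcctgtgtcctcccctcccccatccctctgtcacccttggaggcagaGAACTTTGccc
F10 upstream: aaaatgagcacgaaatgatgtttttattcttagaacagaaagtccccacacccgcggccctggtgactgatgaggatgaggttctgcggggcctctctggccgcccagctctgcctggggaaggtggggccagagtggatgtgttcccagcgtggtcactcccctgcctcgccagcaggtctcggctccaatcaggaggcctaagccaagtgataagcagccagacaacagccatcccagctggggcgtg
The elements of F2, SERPIND1 and KNG1 are given with their flanks, again in capitals, at chr11:46719170-46719193, chr22:20774061-20774086 and chr3:186717109-186717131, all on the plus strand.
F2 GTTAAT element: tagttcaacATTAACccagagggg
SERPIND1 HNF4 element: gcccagcacCAAAGTTCacatcaaaa
KNG1 FOXA element: cttgcatTGTTTACccatgtagt
Both strands of the 250 bases before each RefSeq start were searched, and distances below are to that start. In all matched genes but F10, at least 1 RefSeq start lies downstream of the gene start given with the results, which comes from another annotation. The F2 and SERPIND1 elements are therefore upstream only of the RefSeq start, the first at and the second within the gene as positioned there. The element GTTAAT lay 46 bases before the start in 1 of the 2 PLG windows, with no match in the other, and 34 bases before it in F2, and was present in 6.23% of 35116 promoter windows of that length. The HNF4-type element CAAAGTNC, whose letters were loosened after these windows had been seen, lay 14 bases before the start in F7 and 43 in SERPIND1, and in 2.86% of all windows. FOXA (TNTTTAC) matched in KNG1, SERPIND1 and the downstream window of PROC, and in 9.58% of all windows. C/EBP (TTNNGNAA) matched in the same 3 genes and in 33.2% of all windows. In SERPIND1 it directly followed the FOXA match, with no shared base. The TATA box TATAAA, searched on the plus strand, was found in none of the 10 windows and in 6.80% of all. F5 and F10 had no match. A match is a description of letters and shows no binding.

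Libraries held 17327615 to 25960237 counts. NAA10 checks the labels: it fell from 174 ± 23.4 to 10.99 ± 1.87 CPM (counts scaled to a common library size with TMM factors; mean ± SD, n = 3) in Huh-7, leaving 6.34% of the control level (edgeR adjusted p = 1.66e-08). In the libraries labelled Hep-3B it fell from 55.2 ± 5.93 to 13.6 ± 2.47 CPM, leaving 24.9% (edgeR adjusted p = 1.37e-07). NAA10 shares exonic bases with ARHGAP4 on the same strand, and the part of ARHGAP4 in the remaining counts was not tested. The Hep-3B label is in doubt, since albumin (ALB) and alpha-fetoprotein (AFP), which that line is known to make, stood at 5.05 and 1.65 CPM in its controls against 12585 and 5094 CPM in the Huh-7 controls. All values below that carry the name Hep-3B are for the libraries so labelled. All 9 hepatocyte markers were tested in Huh-7 and 5 fell, against 18.9% of all tested genes. Their summed level there went from 30224 to 31449 CPM in the controls to 23574 to 27183 CPM after siARD1. In Hep-3B, 4 of 5 tested fell, against 15.3% of all tested genes. The sum there was 44.2 to 55.2 CPM in the controls and 25.4 to 34.3 CPM after siARD1, with TTR and APOA2 then at 0. ALB, AFP, TTR, APOA1, APOA2 and AHSG are among 24 genes used below as a trace level of Huh-7 transcripts in the Hep-3B libraries. The pooled trace level was also lower there after siARD1. In Huh-7, 2 of 5 tested fibroblast markers fell (36.1 to 41.9 CPM in sum in the controls, 29.04 to 30.9 after siARD1, with THY1 and FAP at 0). There, 1 of 3 keratinocyte markers fell (13.04 to 14.1, then 10 to 12.4 CPM, with KRT5 and KRT14 at 0), as did 1 of 2 platelet markers (2.23 to 3.32, then 1.56 to 1.91 CPM, with PF4, PPBP and GP9 at 0), and 0 of 1 endothelial and 0 of 2 leukocyte markers passed the test. In Hep-3B, 1 of 5 fibroblast markers rose (162 to 174, then 137 to 172 CPM, with COL1A2, THY1 and FAP at 0). Of 2 endothelial markers there, 1 rose and 1 fell (53.0 to 65.7, then 63.2 to 75.9 CPM), 1 of 2 keratinocyte markers fell (98.3 to 109.5, then 93.7 to 98.3 CPM, with KRT5 at 0), and 0 of 1 leukocyte and 0 of 2 platelet markers passed. For the other counts too, 18.9% of all tested genes fell in Huh-7 and 15.3% in Hep-3B, and 21.2% and 16.8% rose. The part of these markers in the results below was not tested.

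In Huh-7, 7 of the 9 genes fell after siARD1 and 0 rose. PLG fell most, to 40.1% of its control level, followed by KNG1 (57.9%) and F10 (65.8%), while F5, SERPINC1, SERPIND1 and F2 kept 76.4 to 81.9%. F7 and PROC did not pass the test. A gene is called changed where the adjusted p of edgeR's quasi-likelihood test, over all 15919 genes tested in that line, is under 0.05. By that rule 18.9% of all tested genes fell and 21.2% rose. The median log2 fold change of the 9 genes was -0.36, against -0.01 over all tested genes. Because the 9 were chosen with earlier results of these data known, these comparisons are no independent test. In the same 7 genes the siARD1 libraries all lay below the control libraries, a pattern shown by 23.9% of tested genes. An exact permutation test of 3 against 3 libraries cannot give a two-sided p under 0.1. Fewer cells that make a transcript and less of it per cell cannot be told apart in bulk RNA.

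**Figure D1:**
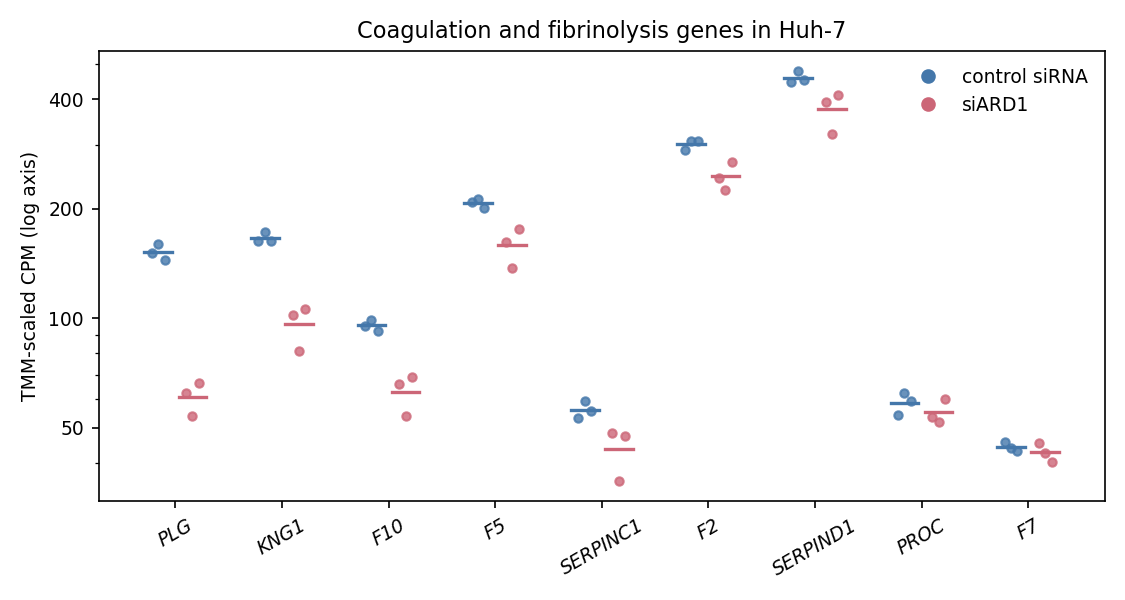
TMM-scaled CPM (log axis) of the 9 genes in the 6 Huh-7 libraries, ordered by change, with points for libraries and bars for group means of 3 libraries. The siARD1 points lie below all control points in 7 genes, with PLG falling from 152 to 60.9 CPM, and overlap them in PROC and F7.

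Plasminogen, the zymogen of the fibrin-cutting protease plasmin, is encoded by PLG (ENSG00000122194, GRCh38 chromosome 6, 160702238 to 160753315). PLG stood at 151, 160 and 144 CPM in the control libraries and at 62.4, 53.7 and 66.5 CPM after siARD1. The highest siARD1 library was therefore well below the lowest control. The log2 fold change was -1.32 (SE 0.07, edgeR adjusted p = 8.90e-12), which placed PLG 229th from the bottom among 15919 tested genes. It ranged from -1.38 to -1.23 when each library was left out in turn. LPA, a near relative of PLG in sequence, held 12 counts in the 3 control libraries together and 5 after siARD1, against 9494 and 3519 for PLG. Reads that match both genes could be split between them by the counting.

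Among the procoagulant factors, F10 fell most, F5 and F2 fell less, and F7 showed no detectable change. F10 (ENSG00000126218, chromosome 13, 113122814 to 113149529), the precursor of the protease that cuts prothrombin, stood at 95.3, 99.0 and 92.4 CPM in the controls and 65.8, 53.8 and 69.0 CPM after siARD1. Its log2 fold change was -0.60 (SE 0.07, edgeR adjusted p = 2.63e-06). F5 (ENSG00000198734, chromosome 1, 169514166 to 169586588, minus strand), the cofactor of activated factor X, went from 209, 213 and 201 to 162, 137 and 176 CPM, a log2 fold change of -0.39 with an SE of 0.07 (edgeR adjusted p = 0.000351). The groups of both genes were separate. F2 (ENSG00000180210, chromosome 11, 46719180 to 46739506), the precursor of thrombin, went from 290, 307 and 307 to 243, 226 and 269 CPM. This was a log2 fold change of -0.29 with an SE of 0.06 (edgeR adjusted p = 0.000441), again with no overlap. F7 (ENSG00000057593, chromosome 13, 113105788 to 113120681), the factor that starts the cascade with tissue factor, had overlapping groups of 45.7, 43.9 and 43.1 CPM in the controls and 45.3, 42.7 and 40.3 CPM after siARD1. Its log2 fold change was -0.05 (SE 0.07, edgeR adjusted p = 0.609). F7 and F10 are neighbours on the same strand, with 2132 bases between the end of F7 and the start of F10. An antisense gene, ENSG00000283828, shares exonic bases with F10 on the opposite strand, and its part in the F10 counts was not tested.

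KNG1 (ENSG00000113889, chromosome 3, 186717276 to 186744410), the kininogen gene, showed the second largest fall. Its control libraries held 164, 173 and 163 CPM and its siARD1 libraries 102, 81.1 and 106 CPM, without overlap. The log2 fold change was -0.79 (SE 0.08, edgeR adjusted p = 2.41e-06). An antisense gene, HRG-AS1, shares exonic bases with KNG1 on the opposite strand. The strand setting of the counting is not given in the sources used here, so reads of the pair cannot be told apart. In Huh-7, HRG-AS1 held only 79 control and 32 siARD1 counts against 10444 and 5574 for KNG1. In the Hep-3B controls it was the higher of the pair, at 0.992 CPM against 0.135 CPM for KNG1, scaled over both lines. The part of HRG-AS1 in the few KNG1 counts there was not tested.

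Of the 3 inhibitors of clotting, both serpins fell and PROC did not pass the test. SERPINC1 (ENSG00000117601, chromosome 1, 173903804 to 173917378, minus strand), which encodes antithrombin, the main plasma inhibitor of thrombin and factor X, went from 53.1, 59.4 and 55.7 to 48.3, 35.7 and 47.3 CPM. Its log2 fold change was -0.36 (SE 0.09, edgeR adjusted p = 0.00629), and the second siARD1 library was the low one. SERPIND1 (ENSG00000099937, chromosome 22, 20773879 to 20787720), the gene of heparin cofactor II, a thrombin inhibitor, went from 445, 478 and 451 to 394, 320 and 411 CPM. The groups did not overlap, and the log2 fold change was -0.29 (SE 0.07, edgeR adjusted p = 0.00605). When both lines were fitted together it was -0.31 and no longer passed. SERPIND1 lies on the opposite strand within PI4KA, without shared exons, and PI4KA stood at 149 CPM in the controls and 138 CPM after siARD1, which did not pass the test. PROC (ENSG00000115718, chromosome 2, 127418427 to 127429246), the precursor of activated protein C, overlapped between groups, with 54.1, 62.2 and 59.1 CPM in the controls and 53.5, 52.0 and 60.0 CPM after siARD1. Its log2 fold change was -0.09 (SE 0.07, edgeR adjusted p = 0.349).

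Levels can be compared between genes only per length. Per kilobase of exon, SERPIND1 was highest in the Huh-7 controls, at 179 ± 6.81 CPM per kb (SD, n = 3), then F2 at 118 ± 4.0, F10 at 40.6 ± 1.40 and KNG1 at 35.6 ± 1.14. SERPINC1 followed at 31.7 ± 1.78, F5 at 29 ± 0.802, PLG at 23.8 ± 1.2, PROC at 23.4 ± 1.63 and F7 at 11.7 ± 0.354 CPM per kb. PLG and PROC were the only neighbours in this order whose library ranges overlapped. After siARD1 PLG stood last, at 9.54 ± 1.03 CPM per kb, below F7 at 11.3 ± 0.657. Annotated exon length counts all isoforms and is not the length of the transcript made. In 8 of the 9 genes the lowest value after siARD1 was in the second siARD1 library, and in F7 it was in the third. The summed level of the 9 genes was 1506, 1595 and 1519 CPM in the controls and 1177, 1002 and 1245 CPM after siARD1. The same number of genes, 7, passed when any library was left out.

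In the libraries labelled Hep-3B the 9 genes were low. In the controls F2, F5, F7 and F10, the 4 genes tested within Hep-3B, were below their Huh-7 control level (edgeR adjusted p at most 2.65e-12, for F5, in the fit of all 4 groups). That call was made for 41.2% of the 17895 genes tested between lines. F5 was 13.7-fold lower, F7 14.8-fold, F2 92.4-fold and F10 184-fold lower. The other 5 genes held few counts and entered that fit only through their Huh-7 counts, so a lower call was fixed in advance and is not used. Their level is given as a share of the Huh-7 control level with a 95% exact Poisson interval, which covers counting error only. PROC, with 5, 6 and 7 counts in the 3 controls, stood at 0.577% (0.342 to 0.913%). PLG, with 1, 3 and 0 counts in the 3 controls, stood at 0.0534% (0.0146 to 0.137%). SERPINC1 (3, 0 and 0 counts) stood at 0.0870% (0.0179 to 0.254%), KNG1 (5, 2 and 1 counts) at 0.0856% (0.0370 to 0.169%) and SERPIND1 (8, 3 and 9 counts) at 0.0782% (0.0477 to 0.121%). A set of 24 other genes, chosen for at least 100 CPM in the Huh-7 controls and at least 1000-fold lower levels in Hep-3B, is used as a trace level of Huh-7 transcripts in these libraries. The rule itself holds these genes to at most 0.1% of Huh-7. PLG and KNG1 would meet it, so the closeness of PLG to this level is no independent finding. Their pooled level was 0.0412, 0.0566 and 0.0422% of that in Huh-7 controls in the 3 Hep-3B controls, and 0.0153, 0.0161 and 0.0146% in the 3 siARD1 libraries, with no overlap. The mean of 20 of the 24 was lower after siARD1 and that of 4 was higher. The median share over the 24 genes fell further, from 0.0418, 0.0491 and 0.0336% in the controls to 0.00636, 0.00581 and 0.00861% after siARD1. The trace level after siARD1 therefore depends on the measure used. At the pooled level PLG would hold 3.78 counts in the controls, against 4 observed, and 1.37 after siARD1, against 1 observed. Whether such counts come from the cells or from another library was not tested. F2, F5 and F7 stood far above the pooled trace level, with 177, 822 and 162 control counts against 7.52, 5.18 and 1.10. F10 and PROC also lay above it, with 28 and 18 control counts against 2.39 and 1.46. KNG1, SERPINC1 and SERPIND1 held 8, 3 and 20 control counts against 4.16, 1.40 and 11.4. After siARD1 these last genes held 9, 1 and 50 counts against 1.51, 0.507 and 4.15.

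After siARD1, F7 rose and F2 fell in Hep-3B, F5 and F10 did not pass, and the other 5 genes were too weak to be tested. By the same rule 16.8% of 15762 tested genes rose and 15.3% fell. The median log2 fold change of the 4 tested genes was 0.17, against -0.01 over all tested genes. F2 held 65, 43 and 69 counts in the controls and 24, 45 and 21 after siARD1, or 2.82, 2.49 and 3.34 CPM against 1.38, 1.95 and 0.808 CPM. The groups did not overlap on the CPM scale, and the log2 fold change was -1.08 (SE 0.28, edgeR adjusted p = 0.00786). F7 held 52, 50 and 60 counts in the controls and 68, 83 and 123 after siARD1, or 2.26, 2.90 and 2.91 CPM against 3.91, 3.60 and 4.73 CPM. Every siARD1 library was above every control, with a log2 fold change of 0.61 with an SE of 0.20 (edgeR adjusted p = 0.0247). The rise of F7 no longer passed without the first control (log2 fold change 0.50) or without the third siARD1 library (0.49).

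**Figure D2:**
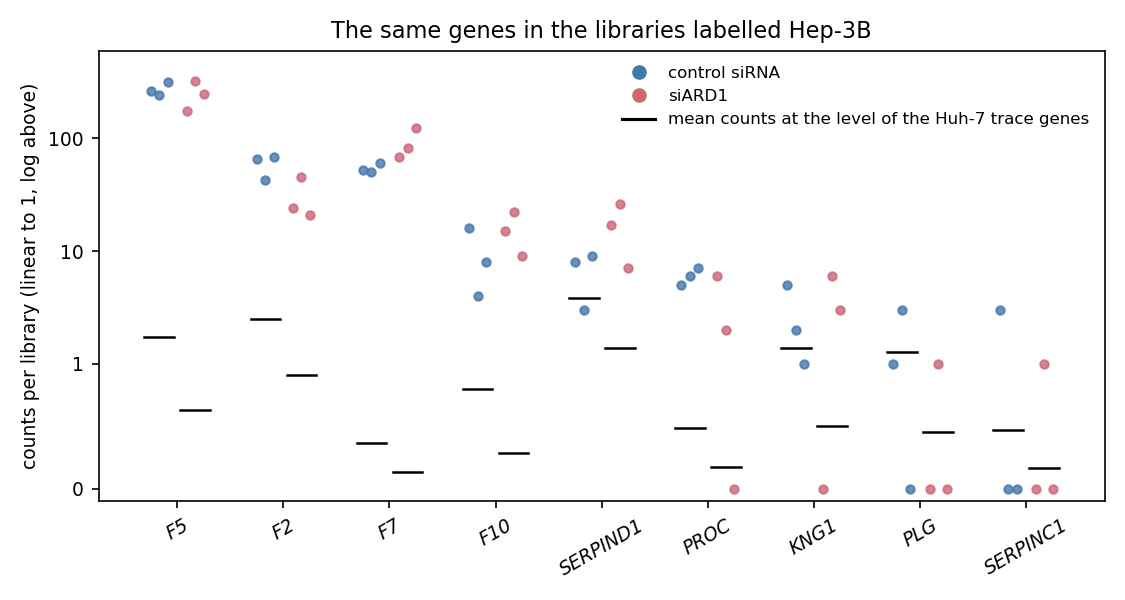
Raw counts of the 9 genes in each of the 6 libraries labelled Hep-3B (axis linear to 1 and logarithmic above), with black bars for the mean count each gene would have at the pooled trace level of 24 Huh-7 genes. F5, F2 and F7 lie far above the bars, and PLG, with 4 control counts and 1 siARD1 count in all, lies at them.

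F5 held 263, 243 and 316 counts in the Hep-3B controls and 175, 323 and 246 after siARD1, and the groups overlapped. Its log2 fold change of -0.28 with an SE of 0.15 (edgeR adjusted p = 0.183) did not pass, and without the second siARD1 library it was -0.48 and passed. F10 held 16, 4 and 8 counts and then 15, 22 and 9, a log2 fold change of 0.63 with an SE of 0.49 (edgeR adjusted p = 0.350). Among the genes too weak to test, SERPIND1 went from 8, 3 and 9 counts to 17, 26 and 7. Its sums were 20 (95% exact Poisson interval 12.2 to 30.9) and 50 (37.1 to 65.9), and the third siARD1 library lay within the range of the controls. With no filter on low counts its log2 fold change was 1.24 (SE 0.50, edgeR adjusted p = 0.0607). PI4KA, within which SERPIND1 lies on the opposite strand, stood at 96.4 CPM in the Hep-3B controls against 0.339 CPM for SERPIND1, scaled over both lines. The part of PI4KA in these few counts was not tested. PROC, the zymogen of the anticoagulant protease, went from 5, 6 and 7 counts to 6, 2 and 0. KNG1 went from 5, 2 and 1 to 0, 6 and 3, PLG from 1, 3 and 0 to 0, 1 and 0, and SERPINC1 from 3, 0 and 0 to 0, 1 and 0. At these depths no difference was detectable in PLG, PROC, KNG1 or SERPINC1.

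The response to siARD1 differed between the lines in F2, F7 and F10, as tested by the interaction term of a fit of all 4 groups, in which 29.7% of 17895 genes passed. F2 fell further in Hep-3B, by a log2 difference of -0.78 (SE 0.24, edgeR adjusted p = 0.0151), which no longer passed without the third Hep-3B control (-0.67) or the third Hep-3B siARD1 library (-0.46). F7 went up in Hep-3B relative to Huh-7 by 0.69 (SE 0.18, edgeR adjusted p = 0.00342), and this passed with any library left out. F10 differed by 1.21 (SE 0.42, edgeR adjusted p = 0.0332), with 28 and 46 counts behind its Hep-3B values. That call was lost with limma-voom (1.21) and without the second (0.93) or the third (1.11) Hep-3B control or the first (1.08) or second (0.90) Hep-3B siARD1 library. F5 differed by 0.13 (SE 0.19, edgeR adjusted p = 0.691). The other 5 genes, too weak to test within Hep-3B, entered this fit only through their Huh-7 counts and did not pass. SERPIND1 differed by 1.49 (SE 0.58, edgeR adjusted p = 0.0740) and PROC by -1.15 (SE 0.64, edgeR adjusted p = 0.187). SERPIND1 went past the threshold under 4 of the alternatives and PROC under 1, but with so few Hep-3B counts nothing is read from this. For PLG, KNG1 and SERPINC1 the SEs were 0.90, 0.84 and 1.38.

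**Figure D3:**
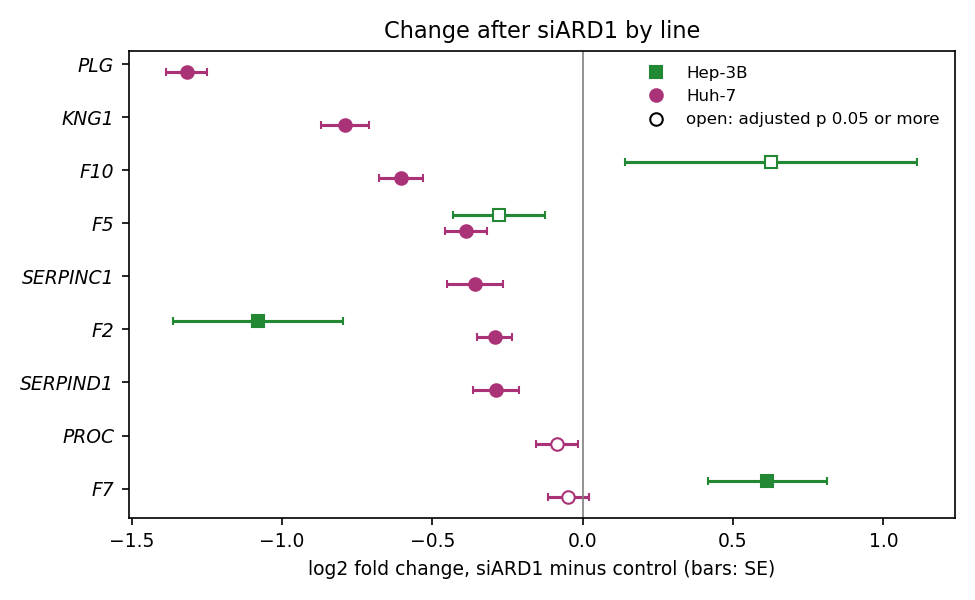
Log2 fold change, siARD1 minus control, of the 9 genes in Huh-7 (circles) and of the 4 tested genes in Hep-3B (squares), with bars for SE and open symbols for adjusted p of 0.05 or more. PLG lies lowest at -1.32 in Huh-7, and F7 lies at 0.61 in Hep-3B and -0.05 in Huh-7.

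Of 42 further genes of clotting, its inhibitors and clot removal, 35 were tested in Huh-7, where 13 fell and 5 rose (18.9% and 21.2% of all tested genes did), with a median log2 fold change of -0.19. In Hep-3B 29 were tested, 9 rose and 8 fell (16.8% and 15.3% of all tested genes did), with a median of 0.00 at 2 decimals (-0.00136). The same shares stand behind the counts of each smaller list below, where single genes are described and nothing is read from the counts. The fibrinogen chains, the substrate of thrombin, fell together in Hep-3B. FGA, FGB and FGG went from 229 ± 19.9, 324 ± 38.0 and 323 ± 36.9 CPM to 84.3 ± 15.4, 137 ± 2.96 and 161 ± 23.3 CPM, log2 fold changes of -1.44, -1.24 and -1.0 (SE 0.12, 0.07 and 0.11). In Huh-7 FGA and FGG fell by only 0.26 and 0.27 on the log2 scale (SE 0.07 and 0.06), from 2290 and 1279 CPM, and FGB at -0.03 (SE 0.10) did not pass, though it did without the third siARD1 library (-0.16). FGA in Huh-7 no longer passed when both lines were fitted together (-0.28) or without the second control (-0.20). F13B, the carrier subunit of the fibrin-linking factor XIII, was at 0.11 (SE 0.09) in Huh-7 and did not pass. F13A1 had no counts in either table.

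Of 5 genes that carboxylate and export clotting factors, 3 rose and 0 fell in Hep-3B (16.8% and 15.3% of all tested genes), and 1 rose and 2 fell in Huh-7 (21.2% and 18.9%). LMAN1, the cargo receptor that carries factors V and VIII out of the endoplasmic reticulum, rose in Hep-3B from 256 ± 7.70 to 316 ± 17.2 CPM (log2 fold change 0.30, SE 0.06) and fell in Huh-7 from 354 ± 5.49 to 278 ± 9.12 CPM (-0.35, SE 0.05). The difference was 0.67 on the log2 scale (SE 0.08, edgeR adjusted p = 3.54e-07). GGCX, the vitamin K-dependent carboxylase, rose in Hep-3B by 0.18 (SE 0.06) and fell in Huh-7 with a log2 fold change of -0.30 (SE 0.06), from 259 to 211 CPM. The rise of GGCX was lost without the second or the third control, without the first or the third siARD1 library, with upper-quartile factors and with no filter (0.15 to 0.18). MCFD2, the partner of LMAN1, rose in Hep-3B by 0.29 (SE 0.06) and was at -0.02 (SE 0.05) in Huh-7. VKORC1L1, a vitamin K reductase, rose in Huh-7 by 0.25 (SE 0.05) and was at 0.08 (SE 0.07) in Hep-3B. VKORC1, the main vitamin K epoxide reductase, did not pass in Hep-3B (-0.37, SE 0.16) or Huh-7 (-0.48, SE 0.21), where it passed with upper-quartile factors (-0.55) and without the third control (-0.65).

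Among the other inhibitors, 4 of 8 tested fell and 1 rose in Huh-7, and 4 of 7 fell and 2 rose in Hep-3B. SERPINE2, protease nexin 1, a thrombin inhibitor, rose in Huh-7 from 56.3 ± 0.554 to 117 ± 4.67 CPM (log2 fold change 1.05, SE 0.06) and in Hep-3B by 0.21 (SE 0.06), a rise that was lost without the third siARD1 library (0.18). SERPINA1, alpha-1-antitrypsin, fell in both, with log2 fold changes of -0.53 (SE 0.06) in Huh-7 and -1.17 (SE 0.23) in Hep-3B. SERPING1, the C1 inhibitor, fell in Huh-7 from 644 ± 26.3 to 444 ± 57.8 CPM (-0.54, SE 0.07). A2M, alpha-2-macroglobulin, fell in Hep-3B from 66 counts to 4, but it is among the 24 genes of the trace level there. PROCR, the receptor of protein C, rose in Hep-3B by 0.21 (SE 0.07), which passed in only 1 of the 6 fits with a library left out (0.14 to 0.27) and not with upper-quartile factors (0.17).

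Of the genes around plasmin, 9 were tested in Huh-7, where 3 fell and 1 rose, and 7 in Hep-3B, where 0 fell. SERPINF2, alpha-2-antiplasmin, the main inhibitor of plasmin, fell in Huh-7 from 457 ± 14.5 to 271 ± 34.3 CPM (log2 fold change -0.75, SE 0.07), and CPB2, which protects fibrin from plasmin, fell less (-0.21, SE 0.06; -0.16 and not called without the second siARD1 library). HABP2, a protease that can activate factor VII, rose in Huh-7 from 28.6 ± 3.11 to 55.5 ± 10.9 CPM (0.95, SE 0.14). In Hep-3B the plasminogen activator urokinase (PLAU) rose from 42.5 ± 5.27 to 61.0 ± 2.85 CPM (0.52, SE 0.09). Of 3 contact and intrinsic factors tested in Huh-7, F12, the contact factor XII, fell from 108 ± 4.24 to 75.4 ± 3.00 CPM (-0.52, SE 0.06), 0 rose, and 0 of 1 passed in Hep-3B.

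Tissue factor itself (F3) passed in neither line. Of its inhibitors, TFPI fell in Huh-7 from 153 ± 2.72 to 131 ± 10.4 CPM (log2 fold change -0.23, SE 0.06). TFPI2 rose in Hep-3B from 2.52 ± 0.0767 to 4.83 ± 0.622 CPM (0.93, SE 0.18) and in Huh-7 from 2.34 to 3.52 CPM (0.58, SE 0.22). The rise of TFPI2 in Huh-7 was lost in 5 of 6 fits with a library left out (0.36 to 0.76 over all 6), and with upper-quartile factors (0.51), DESeq2 (0.58) and limma-voom (0.54). Among 3 protease receptors tested in each line, F2RL2, which binds thrombin as PAR3, rose in Huh-7 from 1.23 ± 0.336 to 7.97 ± 1.46 CPM (2.66, SE 0.21). It fell in Hep-3B from 7.41 ± 1.80 to 5.23 ± 0.483 CPM (-0.49, SE 0.18), which was lost in 5 of 6 fits with a library left out (-0.68 to -0.38) and with DESeq2 and limma-voom. F2RL1, the receptor PAR2, rose in Hep-3B from 46.2 ± 4.63 to 61.8 ± 4.0 CPM (0.42, SE 0.08). Every called value of a gene named in this account of the 42 genes had an edgeR adjusted p of at most 0.0471.

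**Figure D4:**
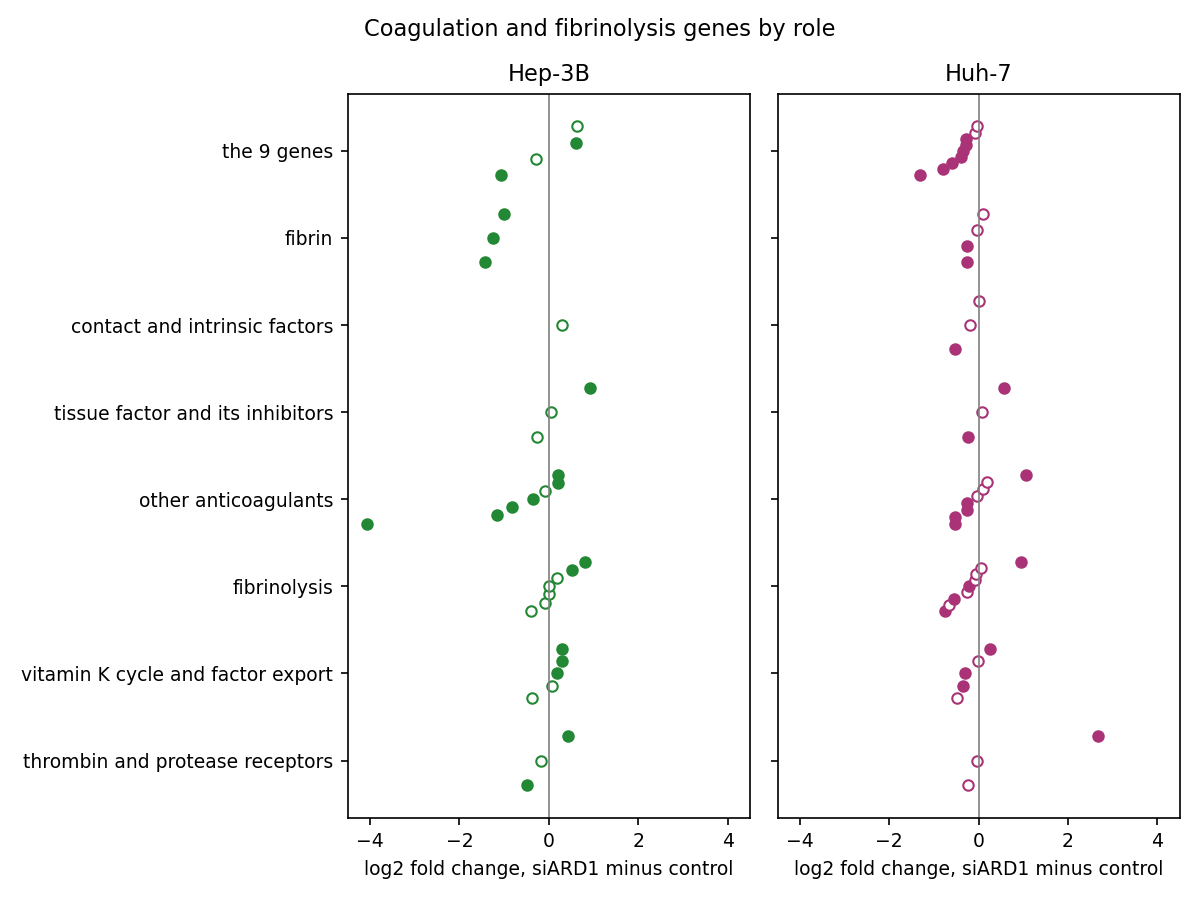
Log2 fold change, siARD1 minus control, of the 9 genes and of the further clotting genes tested, by role, in Hep-3B (left) and Huh-7 (right), with filled points for adjusted p under 0.05. The 3 fibrinogen genes lie between -1.44 and -1.0 in Hep-3B, and the 7 fallen genes of the 9 lie between -1.32 and -0.29 in Huh-7.

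Of 13 transcription factors of the liver, 3 rose and 3 fell in Huh-7, shares near the 21.2% and 18.9% of all tested genes. NR1H4, the bile acid receptor FXR, rose from 117 ± 13.3 to 162 ± 11.98 CPM (log2 fold change 0.47, SE 0.07), and CEBPA rose by 0.31 (SE 0.05). NR5A2 fell with a log2 fold change of -0.30 (SE 0.06) and FOXA2 with -0.24 (SE 0.05). HNF4A did not pass in Huh-7. In Hep-3B PROX1 rose from 44.9 ± 7.17 to 76.6 ± 4.43 CPM (0.77, SE 0.10). These called values had an edgeR adjusted p of at most 0.00142. No link between these factors and the 9 genes was tested.

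The genes whose pattern over the 6 Huh-7 libraries was most like that of PLG were sought among 11153 genes averaging 5 CPM or more, by the Euclidean distance of centred log2 CPM. The nearest were RAB37 (distance 0.22, log2 fold change -1.44), PLCD1 (0.25, -1.26), ENSG00000286403 (0.26, -1.18) and SI (0.26, -1.33). None of the 9 genes or of the 42 further clotting genes was among these 4. The distance includes the change after siARD1, so fold changes near that of PLG follow from the search and are no separate finding.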

How the data were processed

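RNA-seq of 12 libraries of human hepatoma cell lines (4 groups of 3, by the labels) was used. The authors deposited 1 table of raw counts by Ensembl gene for each line, and 0 columns of values lacked a sample. Per the submitters' processing notes, reads were processed with cutadapt 4.6 and STAR 2.7.11b on GRCh38. How reads were assigned to genes, with which annotation and strand option, is not given in the sources used here. Per the labels' protocols, RNA was depleted of rRNA and libraries were directional. The tables list 25720 and 25714 genes, of which 25701 and 25698 were matched to a symbol. Positions and exon lengths come from the GENCODE annotation of GRCh38 supplied with the files.

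Each line was fitted alone in R 4.3.3 with edgeR 4.0.16: filterByExpr (minimum count 10, minimum total 15), TMM factors and a robust quasi-likelihood F-test, with Benjamini-Hochberg adjustment over all genes tested and a threshold of 0.05. Differences between lines come from 1 fit of the 4 groups. SEs were taken as the size of a log2 fold change divided by the root of its F. Fits were tested on simulated data, whose results are not given here, so nothing is read from them.

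The 9 genes, the lists and the tests were chosen with earlier results of these data known. Beside the 9 genes, the text names NAA10, all genes of the fibrin and the vitamin K and export lists, and up to 2 called genes per list, line and direction by smallest p. It also names 4 of the 5 genes nearest to PLG (log2 of CPM plus 0.5). Some genes that the rule names are not reported here. ALB, AFP, LPA, HRG-AS1, PI4KA, F3 and HNF4A, and markers listed at 0, are named outside this rule, after their values were seen. Alternatives were upper-quartile or RLE factors, limma-voom (limma 3.58.1), DESeq2 1.42.0, no low count filter, 1 CPM in 3 libraries, a replicate block, both lines in 1 fit, and each library left out. Python 3.11.15 and matplotlib 3.10.9 made the figures.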

Additional observations from a re-analysis of the deposited data

Results flagged for a closer look

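The change after siARD1 differed between the lines, by the interaction term of the edgeR fit of all 4 groups, in 3 of the 9 genes, against 29.7% of all 17895 genes tested. The log2 differences, Hep-3B change minus Huh-7 change, were -0.78 for F2 (adjusted p = 0.0151), 0.69 for F7 (adjusted p = 0.00342) and 1.21 for F10 (adjusted p = 0.0332). Of the 37 further clotting genes tested this way, 16 differed, 8 in each direction, and those named in the report follow.

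The fibrinogen genes moved down more in Hep-3B, by -1.16 for FGA, -1.19 for FGB and -0.72 for FGG. Among the inhibitors named, the differences were 0.29 for TFPI, -0.83 for SERPINE2 and -3.99 for A2M. A2M held 66 and 4 counts in Hep-3B and is among the 24 genes of the trace level there. Around plasmin the differences were 0.60 for PLAU and -1.34 for HABP2. In the export list they were 0.50 for GGCX, 0.67 for LMAN1 and 0.33 for MCFD2. Among protease receptors they were 0.68 for F2RL1 and -3.13 for F2RL2, and among liver transcription factors 0.39 for FOXA2 and 0.81 for PROX1. For the genes of this paragraph, the edgeR adjusted p was at most 0.0174 (TFPI), and TFPI no longer passed without the first Hep-3B control, the first Hep-3B siARD1 library or the first Huh-7 siARD1 library (0.23 to 0.27).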

How the results depend on the processing

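Under the alternatives, 119 of 121 counts of called genes stayed within 1.5 times the reported count. The exceptions were the genes called in Hep-3B, 1 to 3 of the 9 with a library left out, and the genes that differed between lines, 1 to 4 of the 9. The 7 called in Huh-7 were 6 or 7 under all alternatives. Of the values of single genes, 1361 kept their direction and side of the threshold, 44 no longer passed, 9 newly passed and 10 changed sign. None of the 10 was called. The difference between lines changed sign for PLG with limma-voom (0.29) and with a library left out (-2.29 to 0.84), and with a library left out for F5 (-0.072 to 0.25), KNG1 (-0.065 to 1.54) and SERPINC1 (-2.87 to 2.22). With a library left out, the change in Huh-7 changed sign for FGB (-0.16 to 0.037) and MCFD2 (-0.054 to 0.023). Low counts limit most Hep-3B values of the 9 genes. With a replicate block, 7 of the 9 were called in Huh-7, 2 in Hep-3B and 3 between lines, and PLG was at -1.32. Deviations of same-numbered libraries correlated at 0.03, 0.08 and 0.08 in Hep-3B and 0.08, -0.09 and 0.01 in Huh-7, so the numbers were not taken as pairs. In Hep-3B each control correlated best with its own number. The block was not run for the comparison of controls between lines.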
